A study of Mus musculus with 23 samples.

Results

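The 10 genes described here encode the core of macroautophagy: the 5 measured members of the Atg8 family (Map1lc3a, Map1lc3b, Gabarap, Gabarapl1 and Gabarapl2), the kinase Ulk1, the lipid kinase subunit Becn1, the conjugation enzymes Atg5 and Atg7, and the cargo receptor Sqstm1. They were taken by symbol from a table of 24506 genes, in which each has 1 entry, and all 10 passed the filter on low values (FPKM of 1 or more in at least 2 libraries, met by 13776 genes). FPKM, fragments mapped to a gene scaled by its transcript length and by all mapped fragments, is a level per length, so that genes can be set side by side. The RNA-seq libraries came from mouse germinal vesicle (GV) oocytes, which are arrested before meiotic maturation, from zygotes and from 2-cell embryos. The females were wild type or carried a Cre driver that deletes Cxxc1 in growing oocytes. Cxxc1 is the gene of CFP1, the CpG-binding protein through which SETD1 enzymes are recruited to methylate lysine 4 of histone H3.

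Deletion oocytes at 3 weeks of age came from Cxxc1 fl/fl;Zp3-Cre females, and their counterparts from wild-type females of 3 weeks. Deletion oocytes at 3 months came from Cxxc1 fl/fl;Gdf9-Cre females, and their counterparts from wild-type females of 3 months. Zp3 and Gdf9 promoters are active in growing oocytes, Gdf9 from an earlier follicle stage than Zp3, so that Cre driver and age differ together between both oocyte comparisons and cannot be told apart. Zygotes and 2-cell embryos came from Cxxc1 fl/fl;Zp3-Cre females mated with wild-type males, and their counterparts from wild-type females mated with wild-type males; the labels give no age for these females. A wild-type paternal allele was therefore present in every embryo, and the deletion is that of the mother's oocytes. Each group had 3 libraries except the wild-type 2-cell embryos, which had 2, giving 23 libraries in all. The labels do not say whether libraries of a group came from separate females, so the p-values measure the spread between these libraries, which may be technical.

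Macroautophagy wraps cytoplasm in a double membrane, the autophagosome, and delivers it to the lysosome. ULK1 starts the process, the BECN1-containing lipid kinase marks the site with phosphatidylinositol 3-phosphate, and a ubiquitin-like system in which ATG7 is the activating enzyme and ATG5 part of the ligating complex attaches the small Atg8 proteins to the membrane. Lipid-bound LC3 and GABARAP proteins then dock receptors such as SQSTM1 (p62), which carries ubiquitinated cargo and is itself degraded. In mouse, fertilization is known to switch autophagy on, and embryos lacking both maternal and zygotic ATG5 are known to fail before the blastocyst stage.

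CFP1 recognizes unmethylated CpG, so the CpG content of the promoters is shown for 4 genes with large changes, as the 250 bases before the annotated start (RefSeq, GRCm38.p6), 5′ to 3′ on the gene's strand, with every CG in capitals. The RefSeq promoter table held 8 of the 10 genes; Map1lc3a and Becn1 were not among them.
Gabarapl1 (chr6:129532942-129533191, plus strand): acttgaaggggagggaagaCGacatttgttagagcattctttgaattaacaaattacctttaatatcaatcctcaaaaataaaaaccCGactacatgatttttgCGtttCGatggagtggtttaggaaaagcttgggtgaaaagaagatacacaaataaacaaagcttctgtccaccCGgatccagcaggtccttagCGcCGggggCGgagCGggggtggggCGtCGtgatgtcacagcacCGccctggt
Sqstm1 (chr11:50210821-50211070, minus strand): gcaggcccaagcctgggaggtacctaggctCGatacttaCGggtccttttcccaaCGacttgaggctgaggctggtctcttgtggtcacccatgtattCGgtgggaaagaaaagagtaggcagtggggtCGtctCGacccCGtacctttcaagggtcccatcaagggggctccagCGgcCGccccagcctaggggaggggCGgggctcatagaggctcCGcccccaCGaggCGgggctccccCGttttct
Map1lc3b (chr8:121590188-121590437, plus strand): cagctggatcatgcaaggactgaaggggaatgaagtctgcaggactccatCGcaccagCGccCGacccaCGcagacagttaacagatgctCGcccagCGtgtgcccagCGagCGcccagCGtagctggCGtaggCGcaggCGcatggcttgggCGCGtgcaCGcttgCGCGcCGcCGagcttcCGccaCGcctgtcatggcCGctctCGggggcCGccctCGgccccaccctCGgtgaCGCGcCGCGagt
Gabarapl2 (chr8:111940453-111940702, plus strand): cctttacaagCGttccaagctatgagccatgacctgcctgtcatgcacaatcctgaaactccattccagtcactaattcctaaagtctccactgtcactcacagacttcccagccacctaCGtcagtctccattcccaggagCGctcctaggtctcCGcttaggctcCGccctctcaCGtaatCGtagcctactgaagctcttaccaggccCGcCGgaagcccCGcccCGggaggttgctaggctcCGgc

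Among all 32851 promoter windows of this length in the table the median was 6 CG, and 92.1% held at least 1. Gabarapl1 and Gabarapl2 each held 12, more than 66.5% of all promoters; Sqstm1 held 14 and Map1lc3b 30, more than 70.6% and 94.1% of all promoters. Of those not printed, Ulk1 held 20 CG, Atg5 17, Gabarap 6 and Atg7 3. Gabarapl1 and Gabarapl2 thus hold equal numbers of CG in this window. The E-box CACGTG, the letters that factors such as TFEB and USF1 recognize, occurred once each in Atg5 and Atg7 and in none of the other 6, against 6.02% of all promoters. None of the 8 windows held, on either strand, the antioxidant response element core TGACNNNGC (10.2% of all promoters), the heat-shock element core GAANNTTC (6.69%) or the FOXO site core GTAAACA (3.17%). No binding was measured here, and a match or its lack says only which letters are present.

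Cxxc1 itself stood at 0.893, 1.02 and 1.49 FPKM in 3-week deletion oocytes, against 39.9, 37.9 and 41.5 FPKM in wild-type oocytes, and its libraries did not overlap between deletion and wild type at any stage. The deletion 2-cell libraries had 1.17, 0.626 and 4.16 FPKM, against 9.94 and 11.04 FPKM in wild type. The third deletion 2-cell library stood apart: its log2(FPKM + 1) values correlated with those of the other deletion libraries at 0.942 and 0.936, against 0.983 between those, and the summed FPKM of 6 stromal markers was 136, against 3.25 at the lowest in its group and 1.33 at most in wild-type 2-cell embryos. Values without this library are given beside the results on deletion 2-cell embryos that it moved most. The 3-month deletion oocytes had higher levels of granulosa markers: 12 markers summed to 90.5 to 169 FPKM, against 37.1 to 39.9 FPKM in wild type. At 1 FPKM or more were 10 of the 12 in every deletion library, against 5 or 6 in wild type. None of the 12 was at 0 in all libraries of either group. Inha, the inhibin alpha subunit of granulosa cells, led them. Whether these transcripts came from granulosa cells or from the oocytes was not tested. The 10 oocyte markers, zona pellucida and other egg genes, summed to 4082 to 5103 FPKM in deletion zygotes against 2036 to 2235 FPKM in wild-type zygotes, and to 2019 to 2447 FPKM in deletion 2-cell embryos against 439 to 455 FPKM in wild-type 2-cell embryos. The 6 markers of the 2-cell activation wave summed to 18.2 to 30.3 FPKM in deletion and 146 to 192 FPKM in wild-type 2-cell embryos. Both lists went the other way in oocytes. The oocyte markers summed to 8046 to 8764 FPKM in 3-week deletion oocytes against 10965 to 11105 FPKM in wild type, and to 8205 to 8550 FPKM in 3-month deletion oocytes against 10123 to 10341 FPKM in wild type. The 2-cell markers summed to 16.2 to 19.8 FPKM in 3-week deletion oocytes against 3.35 to 4.05 FPKM in wild type, and to 24.8 to 38.3 FPKM in 3-month deletion oocytes against 3.84 to 4.42 FPKM in wild type. The part of these differences in the results on the autophagy genes was not tested, and in such bulk libraries fewer cells of a type and less RNA per cell cannot be told apart. Sequencing depth is not given; low FPKM values move in steps that put the libraries' relative depth between 0.509 and 1.49 times that of the first 3-week wild-type library.

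Gabarapl1, Map1lc3a, Map1lc3b and Sqstm1 were higher in deletion oocytes of both ages, the LC3 genes only narrowly at 3 weeks, and at the 2-cell stage 4 of the 5 Atg8 genes were lower in deletion embryos while Gabarapl1 and Sqstm1 were higher. The tests were limma fits on log2(FPKM + 1) with Benjamini-Hochberg adjustment over all 13776 genes, called at an adjusted p under 0.05. In 3-week oocytes 4 of the 10 genes were called, all higher in deletion, where 29.6% of all genes tested were called in either direction and 18.3% higher; the median change of the 10 was 0.36 on the log2 scale, against 0.09 over all genes. In 3-month oocytes 5 were called, all higher, against a background of 49.5% (34.2% higher), with a median of 0.53 against 0.20. In zygotes 5 were higher and 2 lower, against 46.7% (35.3% higher and 11.4% lower), with a median of 0.68 against 0.22. In 2-cell embryos 3 were higher and 5 lower, against 66.5% (37.1% higher and 29.4% lower), with a median of -0.52 against 0.16. Many genes were called throughout the transcriptome, and the counts among 10 genes describe these genes only. Of all calls, 61.8%, 69.2%, 75.6% and 55.8% were higher in the 4 comparisons as ordered here, against 45.2%, 47.7%, 40.9% and 45.6% under median-of-ratios scaling. That scaling shifted the log2 change of each gene, by -0.10, -0.22, -0.46 and -0.24 at the median over all genes. Quantile normalization gave 48.2%, 46.6%, 44.6% and 56.1% higher, with median shifts per gene of -0.08, -0.20, -0.37 and 0.05. Of these calls, the ones also made with both scalings were Gabarapl1 and Sqstm1 in 3-week oocytes, these and both LC3 genes in 3-month oocytes, Map1lc3a, Becn1, Atg5, Ulk1 and Sqstm1 in zygotes, and all 8 genes called in 2-cell embryos. Becn1 was called lower with both scalings in 3-month oocytes and 2-cell embryos as well. In zygotes median-of-ratios scaling moved the differences to -0.96 for Becn1, -1.01 for Ulk1 and 0.52 for Sqstm1, all called.

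**Figure D1:**
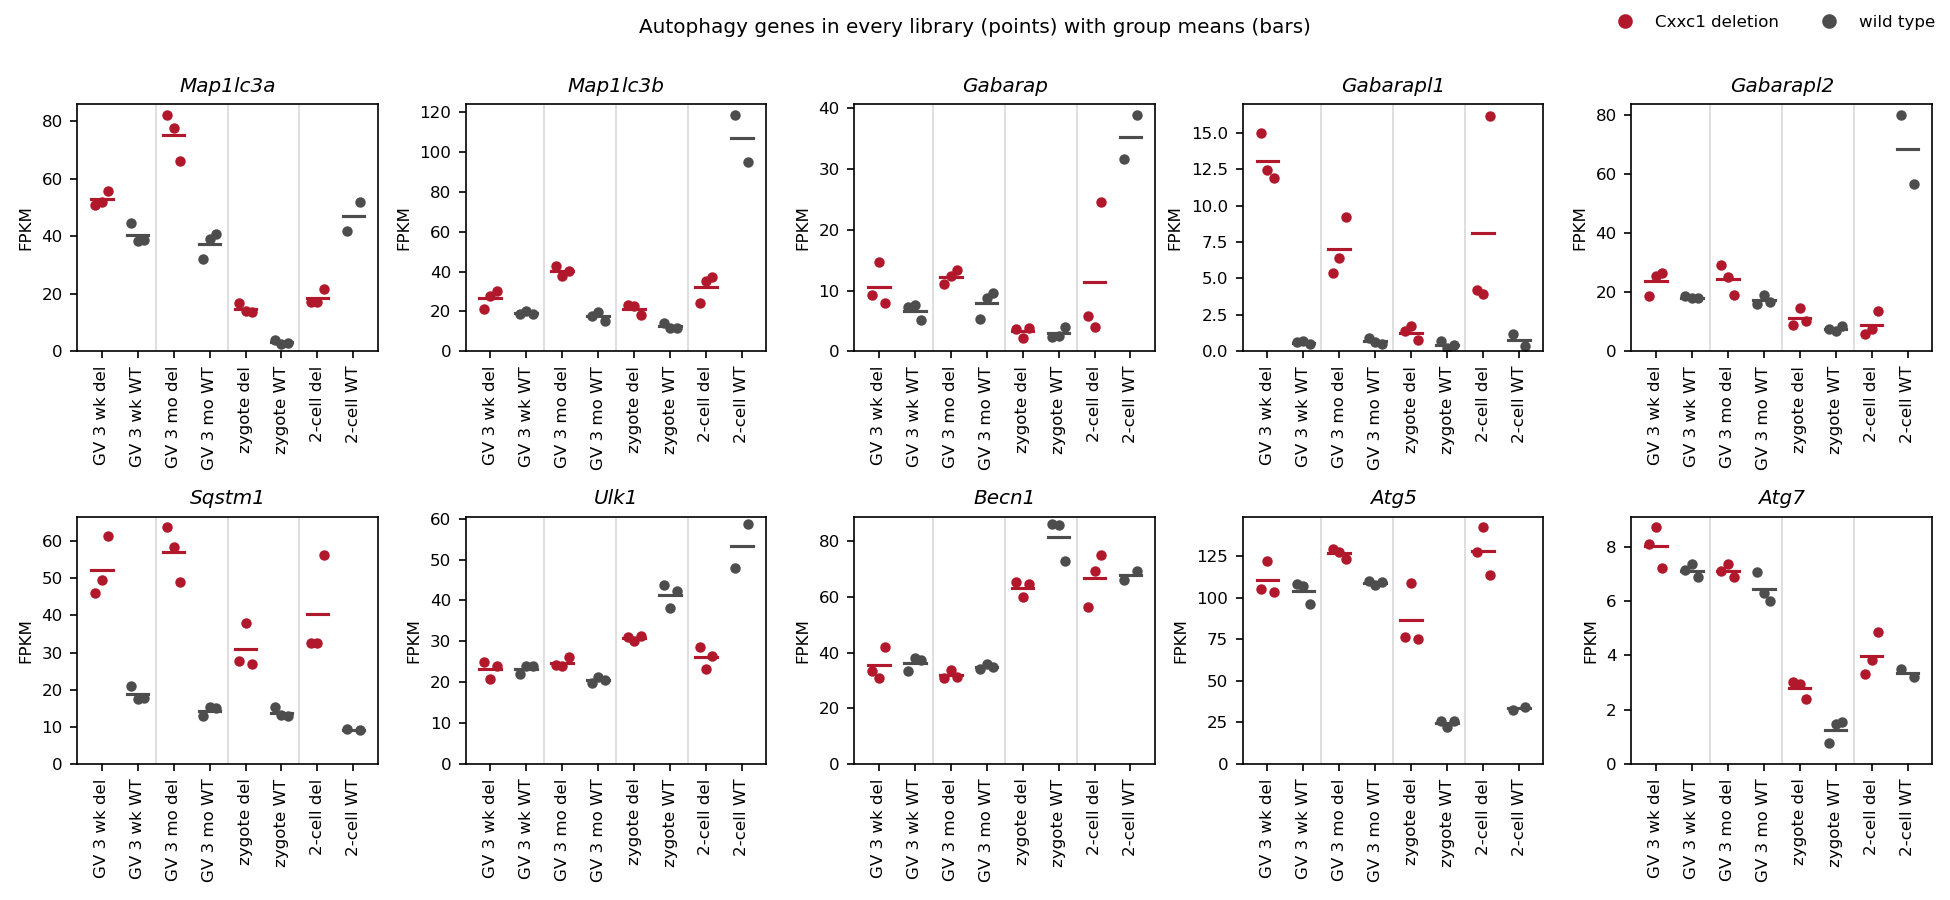
FPKM of the 10 genes in each of the 23 libraries (points) with group means (bars), deletion in red and wild type in grey, at each stage; each panel has its own axis. Gabarapl1 is near 0 in every wild-type group and up to 16.2 FPKM in deletion libraries, and Map1lc3b, Gabarap and Gabarapl2 are highest in the 2 wild-type 2-cell libraries.

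Among the Atg8 family, Gabarapl1, a GABARAP-like protein also known as GEC1, was the least abundant in wild type at every stage and the most changed by the deletion in oocytes. Its level was 14.97, 12.4 and 11.9 FPKM in 3-week deletion oocytes, against 0.617, 0.671 and 0.463 FPKM in wild-type oocytes. The groups were far apart, and the lowest deletion library was above every wild-type library. The change was 3.15 ± 0.34 on the log2(FPKM + 1) scale (SE; adjusted p = 1.40e-06, limma), which understates the ratio of a gene so low in wild type. At 3 months it was 5.38, 6.43 and 9.23 FPKM in deletion oocytes, against 0.940, 0.603 and 0.521 FPKM in wild-type oocytes. It rose here too, by 2.23 ± 0.34 (adjusted p = 2.45e-05). Both rises were called under every alternative tried.

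After fertilization the level of Gabarapl1 was low in both genotypes. It was 1.37, 1.72 and 0.746 FPKM in deletion zygotes, against 0.705, 0.221 and 0.425 FPKM in wild-type zygotes. The deletion libraries lay above the wild-type ones by a narrow margin, and the difference of 0.64 ± 0.34 did not pass the test (adjusted p = 0.132). It was called with a pseudocount of 0.1 (1.35, adjusted p = 0.0256), with array weights (adjusted p = 0.0407) and in a fit of only the groups compared (adjusted p = 0.0297). In 2-cell embryos it was 4.24, 3.95 and 16.2 FPKM in deletion libraries, against 1.21 and 0.349 FPKM in wild-type libraries. All 3 deletion libraries were higher than both wild-type ones, and the third, the library that stands apart, was the highest. The change was 2.15 ± 0.38 (adjusted p = 4.82e-05), and 1.56 without that library (adjusted p = 1.78e-05).

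The wild-type values of Gabarapl1 rest on very few fragments. Multiplied by the relative depth they fell on whole steps: 5, 6 and 8 steps in the 3-week wild-type libraries and 6, 2 and 4 in the wild-type zygotes, against 191, 74 and 59 steps in 3-week deletion oocytes and 10, 25 and 5 in deletion zygotes. In the 13 libraries under 10 steps the values lay within 0.141 of a whole number. No step size is given for this gene apart from such values, so this closeness is not an independent test. If 1 step is 1 fragment, the wild-type level is known only roughly.

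Map1lc3a and Map1lc3b encode LC3A and LC3B, the LC3 proteins most used to follow autophagosomes. Map1lc3a was the most abundant Atg8 transcript in all 12 oocyte libraries, and Map1lc3b in all 11 zygote and 2-cell libraries. Map1lc3a stood at 50.9, 52.0 and 55.6 FPKM in 3-week deletion oocytes, against 44.6, 38.3 and 38.7 FPKM in wild-type oocytes. The groups did not overlap, but the change of 0.38 ± 0.13 was small (adjusted p = 0.0380, limma) and lost its call under 10 of the 14 alternatives. These included both scalings and leaving out the second or the third wild-type library or any deletion library (0.34 to 0.40, adjusted p = 0.0597 to 0.119). At 3 months it was 82.1, 77.6 and 66.3 FPKM in deletion oocytes, against 32.0, 38.9 and 40.9 FPKM in wild-type oocytes. Here the ratio of means was 2.02, and the rise of 1.00 ± 0.13 (adjusted p = 5.57e-06) was called under all 14 alternatives, both scalings included.

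Map1lc3b followed the same order in oocytes. It was 21.3, 28.0 and 30.4 FPKM in 3-week deletion oocytes, against 18.7, 20.3 and 18.9 FPKM in wild-type oocytes, a change of 0.43 ± 0.16 (adjusted p = 0.0432) that lost its call under 9 of 14 alternatives, among them both scalings and leaving out any wild-type library or the second or the third deletion library (0.33 to 0.46, adjusted p = 0.0688 to 0.185). At 3 months it was 42.9, 37.9 and 40.1 FPKM in deletion oocytes, against 17.9, 19.5 and 14.95 FPKM in wild-type oocytes. Every deletion library was well above every wild-type library, and the change was 1.17 ± 0.16 (adjusted p = 5.63e-06). The difference between the effects in both oocyte comparisons was 0.62 ± 0.19 for Map1lc3a (adjusted p = 0.0604) and 0.74 ± 0.22 for Map1lc3b (adjusted p = 0.0575), and neither passed the test, in a comparison where 4.89% of all genes did, 3.20% higher and 1.68% lower. Array weights and a fit of only the groups compared called both. Map1lc3a was also called without the third 3-month deletion library, and Map1lc3b without the third 3-week deletion library. Each stayed uncalled under the other 17 of 20 alternatives.

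In zygotes Map1lc3a was 16.8, 13.9 and 13.6 FPKM in deletion embryos, against 3.93, 2.68 and 2.98 FPKM in wild-type embryos. This gap, with a ratio of means of 4.62, was the largest deletion effect on the 10 genes at that stage, with a change of 1.92 ± 0.13 (adjusted p = 3.60e-10). Map1lc3b was 23.4, 22.5 and 18.3 FPKM in deletion zygotes, against 14.2, 11.7 and 11.8 FPKM in wild-type zygotes. It rose by 0.72 ± 0.16 (adjusted p = 6.59e-04), a call that was lost with either scaling.

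In 2-cell embryos the order was turned round for both LC3 genes. Map1lc3a was 17.0, 17.2 and 21.7 FPKM in deletion embryos, against 42.0 and 52.0 FPKM in wild-type embryos. Map1lc3b was 24.2, 35.3 and 37.5 FPKM in deletion embryos, against 119 and 95.0 FPKM in wild-type embryos. No deletion library reached a wild-type one for either gene: Map1lc3a fell by 1.29 ± 0.15 (adjusted p = 2.31e-07) and Map1lc3b fell by 1.71 ± 0.17 (adjusted p = 4.21e-08).

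Gabarap and Gabarapl2 (GATE-16), the GABARAP proteins that act late in autophagosome closure and fusion, were not called at any stage before the 2-cell stage. Gabarap was 9.30, 14.7 and 7.94 FPKM in 3-week deletion oocytes, against 7.24, 7.63 and 5.22 FPKM in wild-type oocytes. Gabarapl2 was 18.8, 25.6 and 26.6 FPKM in 3-week deletion oocytes, against 18.6, 17.9 and 17.97 FPKM in wild-type oocytes. The deletion libraries were higher for both genes, by narrow margins at their closest, and neither difference was called: 0.57 ± 0.40 for Gabarap (adjusted p = 0.318) and 0.35 ± 0.23 for Gabarapl2 (adjusted p = 0.278). At 3 months the differences were 0.61 ± 0.40 and 0.46 ± 0.23 (adjusted p = 0.221 and 0.104), and in zygotes 0.11 ± 0.40 and 0.48 ± 0.23 (adjusted p = 0.870 and 0.0916). Array weights and a fit of only the groups compared called both genes at 3 months (adjusted p = 0.00392 to 0.0177), and Gabarapl2 was called at 3 months without the third deletion library (0.62, adjusted p = 0.0499). Gabarapl2 was also called in 3-week oocytes and in zygotes in a fit of only the groups compared (adjusted p = 0.0491 and 0.0470).

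At the 2-cell stage both were far lower in deletion. Gabarapl2 was 5.90, 7.50 and 13.5 FPKM in deletion embryos, against 80.0 and 56.6 FPKM in wild-type embryos. Its fall of 2.85 ± 0.25 (adjusted p = 7.05e-09) was the largest fall among the 10 genes in that comparison. Gabarap was 5.73, 3.96 and 24.5 FPKM in deletion embryos, against 31.6 and 38.9 FPKM in wild-type embryos. The third deletion library was close to wild type and the other two were not; Gabarap fell by 1.93 ± 0.45 (adjusted p = 8.45e-04), and by 2.64 without that library (adjusted p = 1.16e-07).

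Summed over the 5 genes, Atg8 transcripts came to 127 ± 9.9 FPKM in 3-week deletion oocytes and 85.3 ± 4.3 FPKM in wild-type oocytes (SD, n = 3 each). The 3-month sums were 159 ± 11 FPKM in deletion and 80.5 ± 7.6 FPKM in wild-type oocytes (SD, n = 3 each). In zygotes the sum was 52.0 ± 4.6 FPKM in deletion and 26.8 ± 2.7 FPKM in wild type (SD, n = 3 each). Up to this stage the deletion sum was the higher one, in all libraries. These are sums of FPKM without further scaling. In zygotes both scalings lowered the all-gene median of the deletion change, from 0.22 to -0.05 and -0.07 on the log2 scale. With either of them 1 of the 5 genes was called higher there. Whether the higher sum in deletion zygotes would remain after scaling was not tested. In 2-cell embryos the sum was 57.0, 67.9 and 113 FPKM in deletion libraries, against 274 and 243 FPKM in wild-type libraries. Gabarapl1 made up 10.4% of the sum in 3-week deletion oocytes, against 0.683% in wild type. In single 2-cell libraries its share was 7.43%, 5.82% and 14.3% in deletion, against 0.441% and 0.144% in wild type.

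**Figure D2:**
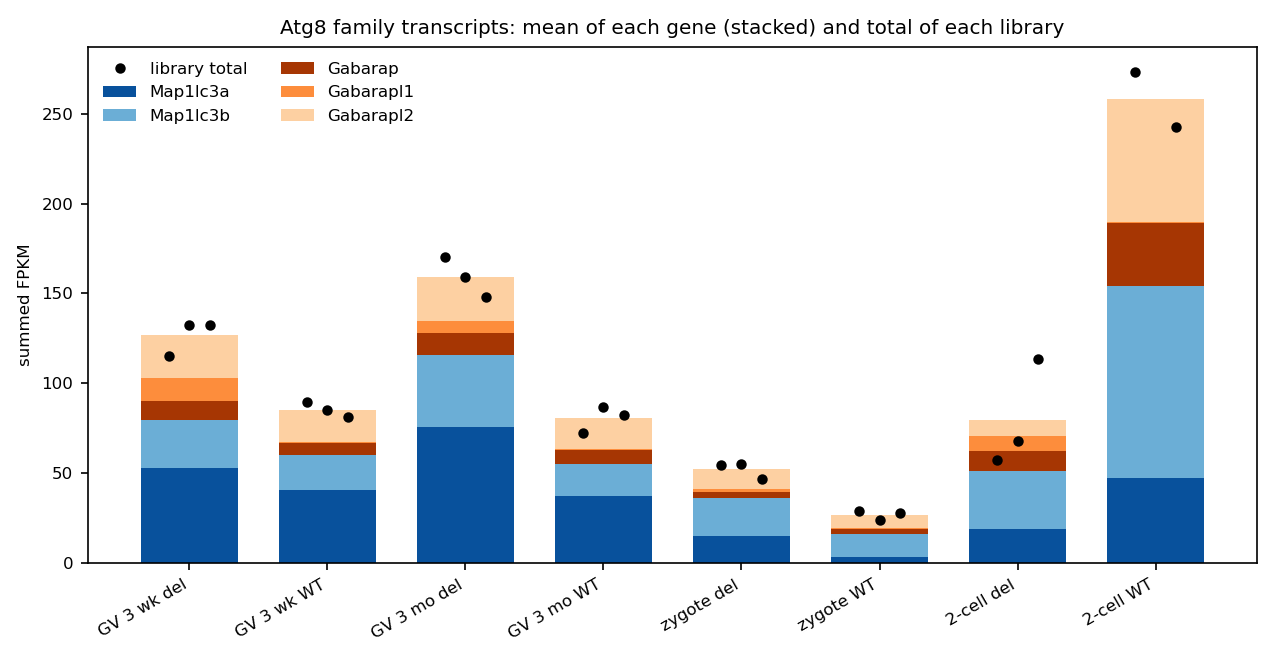
Summed FPKM of the 5 Atg8 family genes by group (stacked means of each gene, y axis from 0), with the sum of each library as black points. The deletion sums exceed wild type in oocytes and zygotes, whereas the 2 wild-type 2-cell libraries, at 274 and 243 FPKM, exceed all 3 deletion libraries.

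The steps between stages show where the 2-cell difference lay. These comparisons use the same zygote libraries as the deletion comparisons. Between zygote and 2-cell embryo in deletion, where 50.0% of all genes were called, 32.7% higher and 17.3% lower, the log2 change was 0.31 for Map1lc3a (adjusted p = 0.0571) and -0.34 for Gabarapl2 (adjusted p = 0.223), neither called. Without the third deletion 2-cell library Gabarapl2 was called lower (-0.65, adjusted p = 0.0131) and Map1lc3a stood at 0.20 (adjusted p = 0.254). Map1lc3b rose by 0.55 (adjusted p = 0.00589), and Gabarap by 1.18 (adjusted p = 0.0203), but without a call if either the third deletion 2-cell library (0.46, adjusted p = 0.165) or the second deletion zygote library (0.99, adjusted p = 0.0810) was left out. In the same step of wild-type embryos Map1lc3a rose by 3.52, Gabarap by 3.22, Gabarapl2 by 2.99 and Map1lc3b by 2.99 on the log2 scale, where 68.5% of all genes were called, 44.5% higher and 24.0% lower. The deletion effect at the 2-cell stage was lower than that in zygotes by 3.33 ± 0.34 for Gabarapl2, 3.21 ± 0.20 for Map1lc3a, 2.43 ± 0.23 for Map1lc3b and 2.04 ± 0.60 for Gabarap, all 4 called, in a comparison where 53.9% of all genes were called, 32.4% lower and 21.5% higher. Gabarapl1 was lower by 2.65 ± 0.34 in deletion zygotes than in 3-week deletion oocytes (adjusted p = 8.78e-07) and higher by 1.77 ± 0.34 in deletion 2-cell embryos than in deletion zygotes (adjusted p = 2.35e-04), while in wild type neither step was called (-0.14 and 0.26).

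From oocyte to zygote Map1lc3a fell by 1.78 ± 0.13 in deletion (adjusted p = 4.27e-10), where 64.9% of all genes were called, 43.0% lower and 21.9% higher. In wild type Map1lc3a fell by 3.32 ± 0.13 (adjusted p = 2.03e-14), Gabarapl2 by 1.16 and Gabarap by 0.97, against a background of 70.1% called, 50.7% lower and 19.4% higher. The calls of Gabarapl2 and Gabarap were lost under both scalings, and that of Gabarap also without the first or the second oocyte library or the first or the second zygote library (adjusted p = 0.0882 to 0.1003). Map1lc3b fell by 0.58 and Sqstm1 by 0.41, but both stood higher in zygotes with either scaling, and the call of Sqstm1 was also lost without any oocyte library or the second or the third zygote library (adjusted p = 0.0544 to 0.155). The scalings raised the log2 change of each gene in this comparison, by 0.70 and 0.77 at the median over all genes. Falls smaller than these shifts cannot be told apart from a fall of the transcriptome as a whole. No gene of the 10 differed between wild-type oocytes of 3 months and 3 weeks in the limma test, and none had an unadjusted p under 0.05; 3.95% of all genes were called there, 2.25% higher and 1.70% lower. Array weights called 2 of the 10 in that comparison, and a fit of only those 2 groups called 1.

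SQSTM1 is an autophagy receptor whose gene is also a known target of NRF2. Sqstm1 was higher in deletion in all 4 comparisons. It stood at 45.9, 49.5 and 61.3 FPKM in 3-week deletion oocytes, against 21.0, 17.5 and 17.6 FPKM in wild-type oocytes. At 3 months it was 63.9, 58.5 and 49.0 FPKM in deletion oocytes, against 12.8, 15.3 and 14.9 FPKM in wild-type oocytes. The lowest deletion library was far above the highest wild-type one in both comparisons, and the changes were 1.43 ± 0.18 (adjusted p = 7.78e-06) and 1.92 ± 0.18 (adjusted p = 8.41e-08).

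Sqstm1 was 27.6, 37.9 and 27.0 FPKM in deletion zygotes, against 15.4, 13.2 and 12.8 FPKM in wild-type zygotes. At the 2-cell stage Sqstm1 was 32.6, 32.6 and 56.3 FPKM in deletion libraries, against 9.26 and 9.06 FPKM in wild-type libraries. The groups were again apart, by 1.09 ± 0.18 in zygotes (adjusted p = 3.54e-05) and 1.98 ± 0.20 in 2-cell embryos (adjusted p = 3.59e-08), or 1.72 without the third deletion library. All 4 calls were kept under every alternative, both scalings included. In deletion the 2-cell level of Sqstm1 was above the zygote level by 0.35 ± 0.18 without passing the test (adjusted p = 0.107), and by 0.093 without the third deletion 2-cell library (adjusted p = 0.658). In wild type Sqstm1 fell by 0.54 ± 0.20 in the same step (adjusted p = 0.0213), a call lost without the first zygote library or either 2-cell library (adjusted p = 0.0706 to 0.0844).

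Atg5 forms, with ATG12 and ATG16L1, the complex that sets the site of Atg8 lipidation. It was the most abundant of the 10 in oocytes, at 106, 122 and 104 FPKM in 3-week deletion oocytes against 109, 107 and 96.6 FPKM in wild-type oocytes. These groups overlapped and the difference of 0.08 ± 0.12 was not called (adjusted p = 0.643), nor was that of 0.22 ± 0.12 at 3 months (adjusted p = 0.127), which array weights and a fit of only the groups compared did call (adjusted p = 0.0127 and 0.00235). In zygotes it was 76.1, 109 and 75.4 FPKM in deletion embryos, against 25.5, 22.2 and 25.6 FPKM in wild-type embryos. By the 2-cell stage Atg5 was 128, 143 and 114 FPKM in deletion libraries, against 32.5 and 34.2 FPKM in wild-type libraries. Deletion embryos were near the oocyte level and wild-type embryos far below it, with no overlap at either stage: Atg5 was higher by 1.77 ± 0.12 in zygotes (adjusted p = 1.64e-10) and by 1.91 ± 0.13 in 2-cell embryos (adjusted p = 1.45e-10), called under both scalings.

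The step from oocyte to zygote shows the same for Atg5: it fell by 0.36 ± 0.12 in deletion (adjusted p = 0.00997) and fell by 2.05 ± 0.12 in wild type (adjusted p = 3.23e-12), a difference of 1.69 ± 0.16 (adjusted p = 1.52e-07) in a comparison where 29.4% of all genes were called. The deletion fall was not called under quantile normalization or without the second deletion oocyte library or the first or the third deletion zygote library (adjusted p = 0.0575 to 0.0678), and under median-of-ratios scaling Atg5 stood 0.05 higher in deletion zygotes. Over this step the oocyte markers above, whose summed level was also higher in deletion embryos, moved the same way. From zygote to 2-cell embryo the marker sums fell in both genotypes. Atg5 rose there by 0.57 in deletion (adjusted p = 4.26e-04, limma) and by 0.44 in wild type (adjusted p = 0.00550, limma). The wild-type call was lost under both scalings. The part of the oocyte markers in the differences of Atg5 was not tested.

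Atg7, the activating enzyme of both ubiquitin-like systems, was low throughout. It was 8.11, 8.74 and 7.25 FPKM in 3-week deletion oocytes against 7.15, 7.37 and 6.90 FPKM in wild-type oocytes, and was not called in oocytes of either age. In zygotes it was 3.02, 2.96 and 2.41 FPKM in deletion embryos, against 0.779, 1.46 and 1.54 FPKM in wild-type embryos. That was the only stage at which Atg7 passed the test, with a rise of 0.76 ± 0.14 (adjusted p = 1.07e-04) that was not called under quantile normalization. In 2-cell embryos it was 3.32, 3.83 and 4.85 FPKM in deletion and 3.49 and 3.22 FPKM in wild type, overlapping groups with a difference of 0.19 ± 0.15 (adjusted p = 0.288), or 0.069 without the third deletion library (adjusted p = 0.710).

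Ulk1, the kinase that acts first, was flat in 3-week oocytes and lower in deletion embryos. It was 24.9, 20.8 and 23.9 FPKM in 3-week deletion oocytes, against 21.9, 24.0 and 23.8 FPKM in wild-type oocytes, with a difference of -0.0045 ± 0.092 (adjusted p = 0.989). At 3 months it was higher in deletion by 0.26 ± 0.09 (adjusted p = 0.0272), a call lost under both scalings and without the first or the third wild-type library or the third deletion library (0.22 to 0.26, adjusted p = 0.0591 to 0.0978). In zygotes it was 31.1, 30.04 and 31.2 FPKM in deletion embryos, against 43.8, 38.1 and 42.4 FPKM in wild-type embryos. The 2-cell values of Ulk1 were 28.6, 23.1 and 26.4 FPKM in deletion libraries, against 48.0 and 58.6 FPKM in wild-type libraries. Here no library overlapped with the other genotype: Ulk1 fell by 0.41 ± 0.09 in zygotes (adjusted p = 9.23e-04) and by 1.00 ± 0.10 in 2-cell embryos (adjusted p = 5.15e-08).

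Becn1 encodes Beclin 1, the scaffold of the autophagy lipid kinase. It was 33.5, 31.0 and 42.0 FPKM in 3-week deletion oocytes, against 33.2, 38.2 and 37.2 FPKM in wild-type oocytes. In zygotes it was 65.3, 59.9 and 64.6 FPKM in deletion embryos, against 86.2, 85.9 and 72.9 FPKM in wild-type embryos. In 2-cell embryos it was 56.3, 69.2 and 75.2 FPKM in deletion libraries, against 66.0 and 69.5 FPKM in wild-type libraries. The zygote difference was called, a fall of 0.36 ± 0.11 (adjusted p = 0.0106), and the oocyte and 2-cell ones were not, with differences from -0.13 to -0.03 and adjusted p of 0.349 to 0.856. With median-of-ratios scaling and with quantile normalization it was called lower at 3 months (-0.37 and -0.31, adjusted p = 0.0107 and 0.0287) and in 2-cell embryos (-0.30 each, adjusted p = 0.0351 and 0.0387). The 2-cell difference without the third deletion library was -0.12 (adjusted p = 0.427). Becn1 was higher in zygotes than in 3-week oocytes of both genotypes, by 0.83 ± 0.11 in deletion (adjusted p = 1.57e-06) and by 1.15 ± 0.11 in wild type (adjusted p = 9.72e-09).

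**Figure D3:**
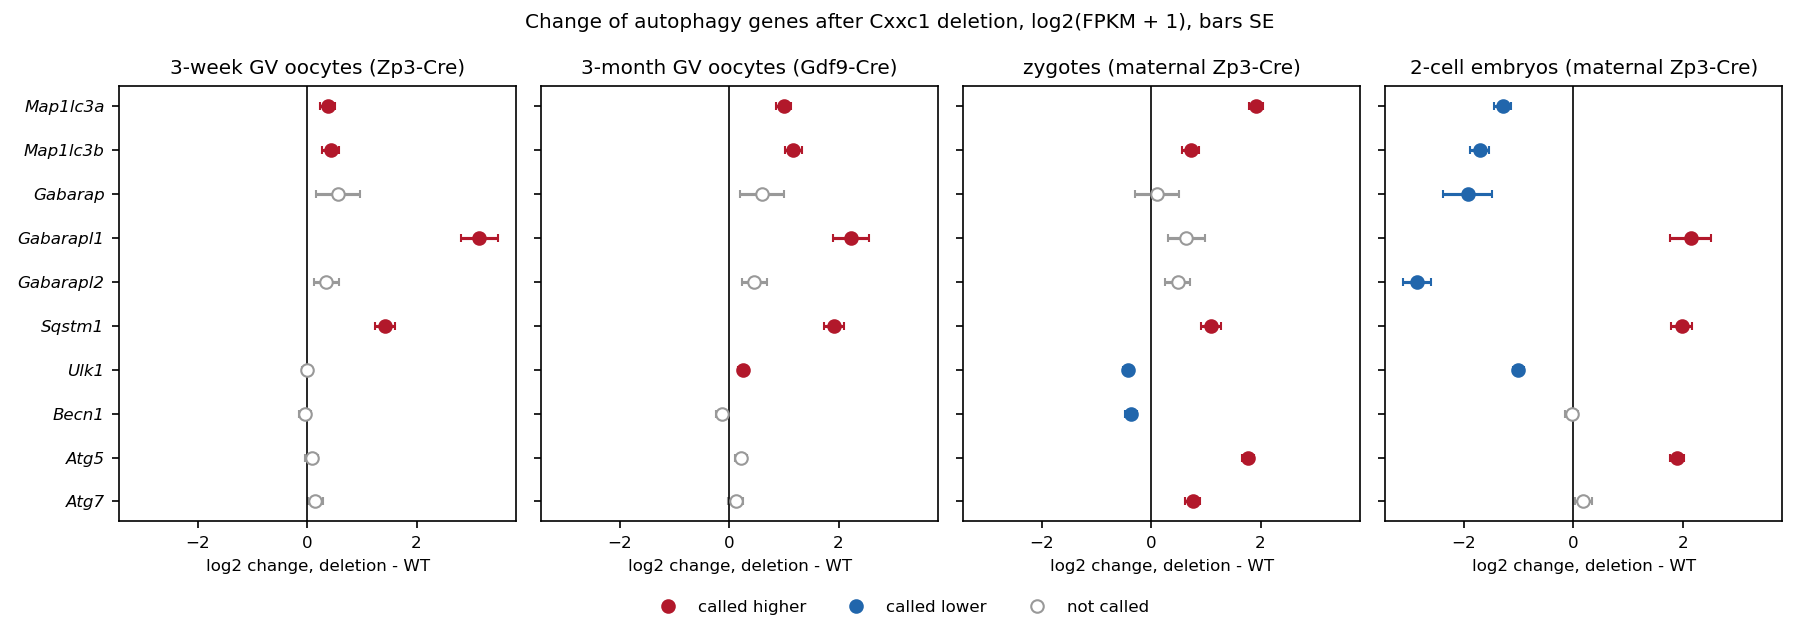
Difference between deletion and wild type on the log2(FPKM + 1) scale for the 10 genes, with standard errors, in the 4 comparisons; filled points passed an adjusted p under 0.05 (red higher, blue lower in deletion) and open points did not. Sqstm1 is higher in all 4 panels, and 4 of the 5 Atg8 genes are lower in the 2-cell panel.

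In the order of group levels, Gabarapl1 was highest in 3-week deletion oocytes (13.1 ± 1.6 FPKM), followed by deletion 2-cell embryos (8.13 ± 6.98) and 3-month deletion oocytes (7.01 ± 1.99), whose ranges overlapped their neighbours' (SD, n = 3 each). Without the third library the mean of deletion 2-cell embryos was 4.09 FPKM, below that of 3-month deletion oocytes. All other groups were at or below 1.28 FPKM on average and overlapped one after another. Sqstm1 had its 4 deletion groups on top, from 57.1 to 30.8 FPKM on average, and its 4 wild-type groups below, from 18.7 to 9.16 FPKM, with no library of one genotype within the range of the other. Becn1 and Ulk1 were instead ordered by stage, with the means of all embryo groups above those of all oocyte groups. For Ulk1, however, the range of deletion 2-cell embryos overlapped those of 3-month deletion oocytes and of 3-week oocytes of both genotypes. Over the 23 libraries the 5 genes most like Gabarapl1 in log2(FPKM + 1), among those averaging at least 5 FPKM, were Csrp2 (r = 0.881), Myadm (0.881), Speer4a (0.875), Thra (0.873) and Sqstm1 (0.870), a description over libraries that share groups and stages.

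The wider pathway was read from a list of 91 autophagy and lysosome genes in 9 roles, of which 89 passed the filter. In 3-week oocytes 27 were higher and 7 lower in deletion, in 3-month oocytes 37 and 8, in zygotes 37 and 7, and in 2-cell embryos 32 and 35. As shares of the 89, 30.3%, 41.6%, 41.6% and 36.0% were higher, against 18.3%, 34.2%, 35.3% and 37.1% of all genes, and 7.87%, 8.99%, 7.87% and 39.3% were lower, against 11.3%, 15.2%, 11.4% and 29.4%. The list's median changes of 0.18, 0.26, 0.33 and 0.10 stood beside 0.09, 0.20, 0.22 and 0.16 over all genes. The 2-cell median turned to -0.13 without the third deletion library, -0.20 with median-of-ratios scaling and -0.07 with quantile normalization, and the zygote median to -0.05 and -0.04 with these scalings. The counts moved too: with median-of-ratios scaling 18 were higher and 8 lower in 3-week oocytes, 24 and 15 in 3-month oocytes, 19 and 22 in zygotes and 26 and 42 in 2-cell embryos. With quantile normalization they were 20 and 7, 27 and 17, 19 and 15, and 32 and 36 in the same order.

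Of 9 tested genes for membrane supply and phosphatidylinositol 3-phosphate binding, 7 were higher and none lower in 3-week deletion oocytes. The counts were 8 and none in 3-month deletion oocytes, 7 and none in deletion zygotes, and 1 and 6 in deletion 2-cell embryos. Of all genes 18.3%, 34.2%, 35.3% and 37.1% were higher in these comparisons, and 11.3%, 15.2%, 11.4% and 29.4% lower. Under either scaling the zygote counts were 4 and 1. Wipi1, which binds the lipid at the forming autophagosome, averaged 11.2 ± 2.4 FPKM in 3-week deletion oocytes and 4.67 ± 0.16 FPKM in wild-type oocytes (SD, n = 3 each), a rise of 1.09 ± 0.16 (adjusted p = 6.17e-05, limma). Wdr45 (WIPI4), which binds ATG2, averaged 13.1 ± 1.6 FPKM in 3-month deletion oocytes and 3.34 ± 0.95 FPKM in wild-type oocytes (SD, n = 3 each), a rise of 1.71 ± 0.24 (adjusted p = 1.11e-05, limma). Cargo receptors had 8, 9 and 7 of 14 higher and none lower in 3-week oocytes, 3-month oocytes and zygotes. In 2-cell embryos 8 were higher and 3 lower. As shares, 57.1%, 64.3%, 50.0% and 57.1% were higher, against 18.3%, 34.2%, 35.3% and 37.1% of all genes. With median-of-ratios scaling 4 were higher and none lower in 3-week oocytes, 6 and 2 in 3-month oocytes and 4 and 5 in zygotes. Quantile normalization gave 6 and none, 7 and 2, and 4 and 2. In oocytes the Atg8 family had 3 and 3 of 5 higher and the initiation kinase complex 2 and 3 of 5, none lower. With median-of-ratios scaling these counts were 1 and 3, and 2 and 0. Autophagosome fusion and transcription and nutrient control did not move this way in oocytes. Of 8 autophagosome fusion genes none were higher and 2 lower at 3 weeks, and 3 and 3 at 3 months. Of 17 genes for transcription and nutrient control 2 were higher and 3 lower at 3 weeks, and 4 and 3 at 3 months. The all-gene shares at these ages were 18.3% and 34.2% higher, and 11.3% and 15.2% lower.

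Among called genes of the list averaging at least 5 FPKM over both groups, Rab7, Rubcn, Atg16l1 and Stx17 fell most in oocytes of each age. Just under that level, and named after its values were seen, Nfe2l2, the gene of NRF2, averaged 2.90 ± 0.09 FPKM in 3-week deletion oocytes and 6.90 ± 0.47 FPKM in wild-type oocytes (SD, n = 3 each). Its falls of 1.02 ± 0.15 (adjusted p = 3.79e-05, limma) and, at 3 months, 0.95 ± 0.15 (adjusted p = 2.94e-05, limma) were the largest of the whole list. Rab7, the GTPase of late endosomes and autophagosome fusion, averaged 148 ± 13 FPKM in 3-week deletion oocytes and 238 ± 7.7 FPKM in wild-type oocytes (SD, n = 3 each), a fall of 0.69 ± 0.11 (adjusted p = 1.01e-04, limma). Rubcn, listed under its older symbol 1700021K19Rik and a brake on the lipid kinase, fell by 0.60 ± 0.10, Atg16l1, the partner of ATG5, fell by 0.53 ± 0.11, and the fusion SNARE Stx17 fell by 0.50 ± 0.11. At 3 months their falls were 0.71 for Rab7, 0.67 for 1700021K19Rik, 0.60 for Atg16l1 and 0.57 for Stx17, all called. The lysosomal protease gene Ctsl was the largest rise of the list at 3 months, at 34.9, 15.2 and 10.7 FPKM in deletion oocytes against 2.40, 1.96 and 2.64 FPKM in wild-type oocytes (2.51 ± 0.43, adjusted p = 8.52e-05); the library with the most Ctsl was also the one with the most Inha (63.3 FPKM, against 33.6 and 24.0 FPKM in the other deletion oocytes).

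In zygotes Uvrag, a lipid kinase subunit, averaged 109.5 ± 12.5 FPKM in deletion and 5.87 ± 1.32 FPKM in wild type (SD, n = 3 each), the largest rise of the list there, 4.02 ± 0.10 (adjusted p = 3.47e-16, limma). Atg12, which is joined to ATG5, averaged 108 ± 6.1 FPKM in deletion and 28.2 ± 0.8 FPKM in wild type (SD, n = 3 each), a rise of 1.90 ± 0.08 (adjusted p = 4.46e-13, limma), and Bnip3l, a mitophagy receptor, rose by 1.96 ± 0.09. Nfe2l2 fell by 0.83 ± 0.15 in zygotes, Tsc1, a brake on mTORC1, by 0.73 ± 0.11, 1700021K19Rik by 0.70 ± 0.10 and Ddit4, an inhibitor of mTORC1, by 0.57 ± 0.19. The call of Ddit4 was lost without the second deletion library (-0.40, adjusted p = 0.128) or the second wild-type library (-0.52, adjusted p = 0.0663), and with median-of-ratios scaling these 4 falls were larger, at -1.39, -1.31, -1.31 and -1.17.

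In 2-cell embryos Uvrag (2.28 ± 0.11), Atg12 (2.28 ± 0.09) and Ncoa4, the ferritin receptor (2.16 ± 0.11), were higher in deletion. Sesn2, a leucine sensor, was 3.27, 3.58 and 3.75 FPKM in deletion embryos, against 151 and 143 FPKM in wild-type embryos. That was the largest change of the list, a fall of 5.03 ± 0.17 (adjusted p = 1.64e-14, limma). Of 13 lysosomal genes 4 were higher and 7 lower in deletion, with a median of -1.36. Of all genes 37.1% were higher and 29.4% lower. Without the third deletion library 3 lysosomal genes were higher and 9 lower, with a median of -2.38. The protease gene Ctsl was 7.91, 6.09 and 30.1 FPKM in deletion embryos, against 146 and 140 FPKM in wild-type embryos. Ctsa, another lysosomal protease gene, was 0.331, 0.383 and 7.90 FPKM in deletion embryos, against 26.8 and 29.2 FPKM in wild-type embryos. The third deletion library held most of the signal of its group for both. Ctsl fell by 3.52 ± 0.48 and Ctsa fell by 3.51 ± 0.49, and without that library Ctsl fell by 4.18 and Ctsa fell by 4.42.

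**Figure D4:**
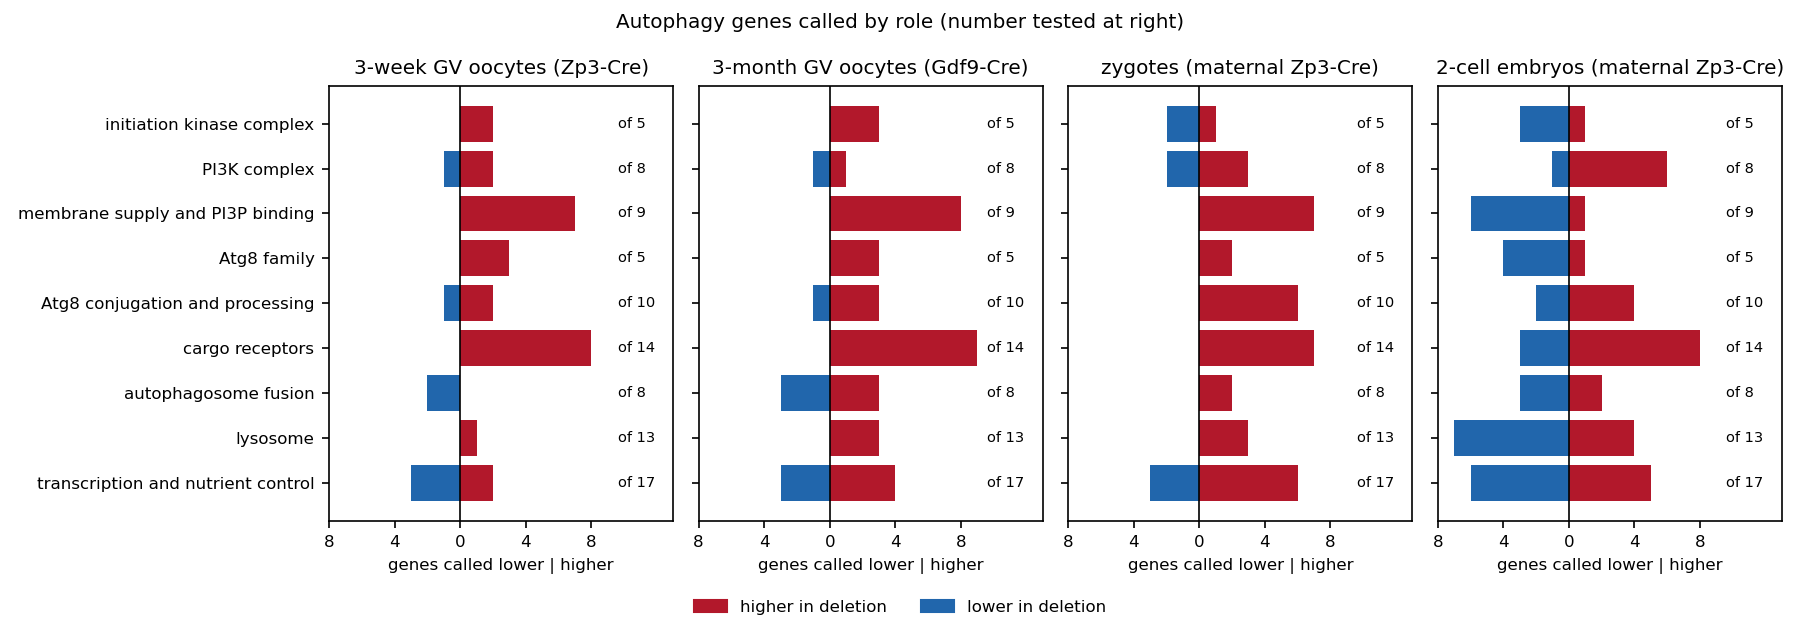
Number of genes called higher (red, right) and lower (blue, left) in deletion for each of 9 roles of the 91-gene autophagy list, with the number tested, in the 4 comparisons. Membrane supply and PI3P binding has 7, 8 and 7 of 9 higher in the first 3 panels and 6 of 9 lower in 2-cell embryos. Of all genes 18.3%, 34.2% and 35.3% were higher in the first 3 panels and 29.4% lower in 2-cell embryos.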

How the data were processed

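RNA-seq was done on 23 libraries of mouse GV oocytes, zygotes and 2-cell embryos, extracted and built with the kits named per the labels' protocols. The authors deposited 1 table of FPKM values, already normalized for transcript length and mapped fragments. Tools listed for the series, per the submitters' processing notes, include CASAVA 1.4 with TopHat2 2.0.12 and Cufflinks 2.2.1, and builds mm10 and mm9, with no role stated for either build. The sources used here give neither strand, handling of multi-mapped reads nor total depth, so reads shared between near-identical copies may be split in ways that cannot be checked.

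Values were analysed as log2(FPKM + 1) with limma 3.58.1 in R 4.3.3 on 13776 genes at FPKM of 1 or more in at least 2 of 23 libraries: means of 8 groups were fitted with a trended empirical Bayes variance, Benjamini-Hochberg adjustment ran over all genes, and calls were made at an adjusted p under 0.05. The procedure was tested on simulated data. Python 3.11.15, pandas 2.3.3 and matplotlib 3.10.9 served for descriptions and plots. Alternatives were a pseudocount of 0.1, no filter, a filter of FPKM 5, median-of-ratios scaling, quantile normalization, a replicate block, array weights, only the groups compared, and each library left out.

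The 10 genes, the 91-gene list and the marker lists were chosen with earlier results of these data known. Beyond the 10 genes and Cxxc1, the text names, per deletion comparison, up to 4 largest called rises and 4 largest called falls of the wider list with a mean of at least 5 FPKM, the 5 genes most correlated with Gabarapl1, and leading markers. Nfe2l2 in oocytes was named after its values were seen. One gene that this rule names is not reported here. Promoters came from RefSeq (GRCm38.p6). No column of the table was left unused.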

Additional observations from a re-analysis of the deposited data

Results flagged for a closer look

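The effect of the deletion differed between stages for several of the 10 genes, by the interaction term of the limma fit, given here as the difference of 2 log2 effects. The effect in zygotes minus that in 3-week oocytes was -2.51 for Gabarapl1, 1.54 for Map1lc3a, 1.69 for Atg5, 0.62 for Atg7 and -0.41 for Ulk1. All 5 passed an adjusted p under 0.05 (limma), in a comparison where 22.4% of all genes were called higher and 7.01% lower. Gabarapl1, Map1lc3a and Atg5 kept their calls under every alternative. Atg7 lost its call under both scalings and without the third deletion oocyte library or the first wild-type zygote library (adjusted p = 0.0529 to 0.0642), and Ulk1 without the first wild-type or first deletion oocyte library or the first wild-type zygote library (adjusted p = 0.0573 to 0.0614).

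The effect in 2-cell embryos minus that in zygotes was -3.33 for Gabarapl2, -3.21 for Map1lc3a, -2.43 for Map1lc3b and -2.04 for Gabarap. The zygote libraries enter both differences. It was 1.51 for Gabarapl1 and 0.89 for Sqstm1, and -0.57 for Atg7 and -0.59 for Ulk1. In that comparison 21.5% of all genes were called higher and 32.4% lower. Without the third deletion 2-cell library the 4 falls of Atg8 genes were -3.64, -3.32, -2.55 and -2.75 in the same order, and the values of Gabarapl1 and Sqstm1 were 0.92 and 0.63, all called. Gabarapl1 lost its call in a fit of only the groups compared and without the second wild-type 2-cell library (1.15, adjusted p = 0.107), Ulk1 under median-of-ratios scaling, and Atg7 under median-of-ratios scaling, in a fit of only the groups compared and without the first library of any of the 4 groups (adjusted p = 0.0506 to 0.0786). Summed oocyte markers were higher in deletion embryos at both stages and summed 2-cell markers lower at the 2-cell stage; their part in these differences was not tested.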

How the results depend on the processing

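Leaving out replicates, scaling and weights moved some counts. Of the 10 genes, 4 were called in 3-week oocytes with all libraries and 2 with no filter, median-of-ratios scaling, quantile normalization or the replicate block, and 2 to 3 when single libraries were left out. In 3-month oocytes 5 were called, against 8 with array weights or only the groups compared, and 4 to 5 with a library left out. All-gene calls there rose too, from 6818 to 9140 with array weights and 8314 with only the groups compared. In 2-cell embryos all 8 calls were kept under every alternative, and in zygotes 7 were called whichever library was left out. For wild-type age, 0 of the 10 and 544 of all genes were called, against 2 and 3246 with array weights, 1 and 2900 with only the groups compared, and 264 to 317 genes with a library left out. For deletion zygotes against oocytes, 9 of the 10 were called, against 5 under quantile normalization, with 8937 and 8956 of all genes. For deletion 2-cell embryos against zygotes, 6 of the 10 and 6887 of all genes were called. Array weights gave 3 and 6384, and only the groups compared 3 and 4454. With a library left out 4 to 8 of the 10 were called. For the Gdf9-Cre effect minus the Zp3-Cre effect, 673 genes were called, against 363 with a pseudocount of 0.1, 3228 with array weights and 2485 with only the groups compared (360 to 766 with a library left out), and 0 of the 10, against 4 and 3 (0 to 1). For the zygote effect minus the oocyte effect, 3 to 5 of the 10 were called with a library left out, against 5 with all libraries. The cause was not tested.

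Scaling turned the direction of some called genes; the cause was not tested. In wild-type zygotes against oocytes, Map1lc3b was 0.27 higher with median-of-ratios scaling and 0.36 higher with quantile normalization, Sqstm1 0.45 and 0.51 higher, and Gabarap 0.15 higher under quantile normalization. Ulk1 was at -0.081 in wild-type 2-cell embryos against zygotes and Atg5 at 0.048 in deletion zygotes against oocytes under median-of-ratios scaling, and Atg7 at 0.026 for the 2-cell minus the zygote effect under quantile normalization. Of all calls, 33.7% were higher in deletion zygotes against oocytes (48.7% and 56.3% with both scalings in the same order), 27.7% in wild-type zygotes against oocytes (48.5% and 54.0%), 65.5% in deletion 2-cell embryos against zygotes (48.8% under quantile normalization), 65.0% in wild-type 2-cell embryos against zygotes (54.3% and 43.4%), 65.5% for the Gdf9-Cre minus the Zp3-Cre effect (35.6% and 32.5%; 55.1% with a pseudocount of 0.1), 76.1% for the zygote minus the oocyte effect (39.4% and 49.1%) and 39.8% for the 2-cell minus the zygote effect (50.3% and 58.0%); for wild-type age it was 57.0%, against 68.6% with a filter of FPKM 5.

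The replicate numbers did not pair the libraries: same-numbered libraries of deletion and wild type correlated between -0.07 and 0.06 in their deviations from the group means. The replicate block called 2 of the 10 genes in 3-week oocytes, against 4 without it, and 4007, 6755, 6387 and 9074 of all genes in the 4 deletion comparisons, against 4081, 6818, 6431 and 9159 without it. Absolute depth is unknown, and low levels such as that of Gabarapl1 in wild type are known only roughly.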
